A study of Homo sapiens with 18 samples.

Results

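The BCL2 family was examined in PEO1 cells, an established human ovarian cancer cell line, across a knockdown of p53 and a time course of estradiol (E2). The 10 genes were taken by symbol from the 57736 rows of the deposited count table. They are the BH3-only genes BBC3, PMAIP1, BID, BIK and BCL2L11, the effectors BAX and BAK1, and the anti-apoptotic genes BCL2L1, MCL1 and BCL2. Each of the 10 was named by a single gene in the table, and all 10 were among the 15318 genes that passed the filter on low counts. Cells carried an siRNA directed at p53 (the sip53 arm) or a control siRNA (the siControl arm). RNA was taken without E2 (0 h) or after 2 h or 8 h with 10 nM E2, which gave 6 groups of 3 samples. All groups were kept in phenol red-free medium with charcoal-stripped serum before E2, a medium low in steroid hormones. Every sample came from this 1 line, which the series title connects with mutant p53, and the labels do not say how many siRNA sequences were used. There was no group given vehicle for 2 h or 8 h, so E2 and the time since its addition cannot be told apart. The library names number all siControl samples before all sip53 samples, and what this order stands for is not stated. Anything that followed that order cannot be told apart from the siRNA. Whether the 3 samples of each group were separate cultures is not stated in the labels, and the p-values measure only the sample-to-sample spread, part or all of which may be technical.

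The family decides whether the outer mitochondrial membrane is opened during apoptosis. BAX and BAK1 form the pores through which cytochrome c leaves, BCL2, BCL2L1 (BCL-XL) and MCL1 hold them in check, and BH3-only proteins either neutralise these guardians or activate the effectors directly. BBC3 (PUMA), PMAIP1 (NOXA) and BAX are textbook target genes of wild-type p53, and BCL2 is a known estrogen-responsive gene in breast epithelium. Much of the family is also controlled after transcription, through protein turnover, cleavage and phosphorylation, none of which an RNA count measures.

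The 18 libraries were read from the 3' ends of transcripts and held 7542457 to 11307199 counts. The range was 7542457 to 10132570 in siControl and 9225939 to 11307199 in sip53. The siControl 0 h library of replicate 2 had the lowest total and stood apart from the rest on the second principal component. As reference targets of p53, RPS27L fell by 2.11 ± 0.14 (SE) and CDKN1A by 0.97 ± 0.10 on the log2 scale in sip53 averaged over the 3 times (edgeR quasi-likelihood test, Benjamini-Hochberg adjusted p = 6.79e-10 and 2.35e-07). All 11 epithelial and ovarian carcinoma markers exceeded a level of 1 CPM (edgeR counts-per-million, a count scaled to a common library size) in some library, and their summed mean level was 5308 to 5473 CPM in the siControl groups and 6727 to 7175 CPM in the sip53 groups. Of these markers 5 of 11 rose in sip53 averaged over times and 0 fell with edgeR (6 and 0 with DESeq2). In the same contrast edgeR called 16.1% of all genes higher and 18.5% lower. The other markers had low sums. Fibroblast markers summed to 5.06 to 10.5 CPM with 4 of 6 at 0 in every library. Leukocyte markers summed to 12.3 to 17.2 CPM with 2 of 6 at 0 everywhere, and endothelial markers to 0.156 to 0.831 CPM. COL1A1 was the 1 fibroblast marker tested, and it was called higher in sip53 averaged over times with edgeR (log2 difference 0.455). Of the leukocyte markers CD68 and CD14 were tested, and 0 were called in that contrast. In bulk RNA, fewer cells expressing a gene and less of its RNA per cell cannot be told apart.

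The 3 members that fell in sip53 after 8 h were BBC3, PMAIP1 and BAX. Promoter sequence of each is shown here because p53 and the estrogen receptor act on DNA. The 8 h call of each was lost when some single libraries were left out, and members called higher are not shown. The bases are those before both the RefSeq start and the gene start in GENCODE v29, 5′ to 3′ on the gene's strand. They come from the RefSeq promoter table on build GRCh38.p14. Each stretch stops short of the RefSeq start, so the bases next to that start are not shown. BBC3 covers chr19:47232767-47232917 (minus strand), PMAIP1 covers chr18:59899746-59899947 (plus strand) and BAX covers chr19:48954625-48954814 (plus strand). Capitals mark E-boxes (CACGTG) in BBC3 and BAX, estrogen response half-sites (GGTCA) in BAX and GC boxes (GGGCGG) in PMAIP1, each searched on both strands.
BBC3: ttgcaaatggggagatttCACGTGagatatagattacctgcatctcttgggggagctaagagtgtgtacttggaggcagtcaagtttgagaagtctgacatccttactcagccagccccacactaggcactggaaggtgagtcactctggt
PMAIP1: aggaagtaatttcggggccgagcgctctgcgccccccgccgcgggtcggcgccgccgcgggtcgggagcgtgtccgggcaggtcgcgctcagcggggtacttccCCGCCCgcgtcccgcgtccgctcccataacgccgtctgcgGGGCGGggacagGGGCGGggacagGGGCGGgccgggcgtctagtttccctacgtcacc
BAX: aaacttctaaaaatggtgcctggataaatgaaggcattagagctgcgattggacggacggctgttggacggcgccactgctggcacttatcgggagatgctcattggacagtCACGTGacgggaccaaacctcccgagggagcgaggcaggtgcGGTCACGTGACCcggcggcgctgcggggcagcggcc

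The stretches differ in composition, with 76.2% G and C in PMAIP1, 61.1% in BAX and 49% in BBC3. PMAIP1 held 4 GC boxes, and 3 of them lie close together near the end of the stretch. In BAX an E-box overlapped half-sites on both strands in a single palindromic run. Windows of 300 bases around the RefSeq start, uncut, were found for 8 of the 10 members, with 5 alternative windows for BID and 2 for BCL2L1. The shares below are of single windows, 13 for the members and 35116 in the table. None of the 13 held a full estrogen response element (GGTCA and TGACC with any 3 bases between them), which 0.057% of all windows hold. The shorter half-site was found in 3 of 13 (1 of BAX and 2 of BID) against 37.4% of all windows. An E-box was found in 4 of 13 (1 of BBC3, 1 of BAX and 2 of BID) against 7.26%, and a GC box in 9 of 13 against 45%. A p53 half-site was found in 1 of 13 (BAK1) against 6.63%. The alternative windows of a gene can overlap, so they are not independent. The overlapping BAX run is counted under both the E-box and the half-site. These are matches of letters in a short window and say nothing of binding.

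Levels were compared as CPM after trimmed-mean (TMM) scaling, and because the method reads 1 end per transcript, CPM of different genes can be set side by side without dividing by length. PMAIP1, whose protein binds MCL1 and promotes its destruction, was the most abundant member, at 218 to 353 CPM with a median of 268. MCL1, its short-lived anti-apoptotic partner, was second at 176 to 259.6 CPM (median 217). BID, the BH3-only protein that caspase-8 cleaves, came next at 106 to 168 CPM (median 137). Together with BBC3 and BCL2L1 they made up most family counts. BBC3, which binds all the anti-apoptotic members, ran from 47.1 to 88.1 CPM, and BCL2L1, a guardian of the mitochondrial membrane, from 40.8 to 66.8 CPM. The remaining members were lower: BAX at 21.9 to 44.6 CPM, BCL2L11 (BIM, an activator BH3-only protein) at 14.6 to 36.8, BAK1 at 18.2 to 28.4, and BIK, a BH3-only protein of the endoplasmic reticulum, at 7.02 to 16.9. BCL2 was the least abundant at 0.513 to 3.94 CPM, which is 4 to 37 counts per library and 0.323% of family counts at the median. Changes of BCL2 were therefore poorly resolved.

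**Figure D1:**
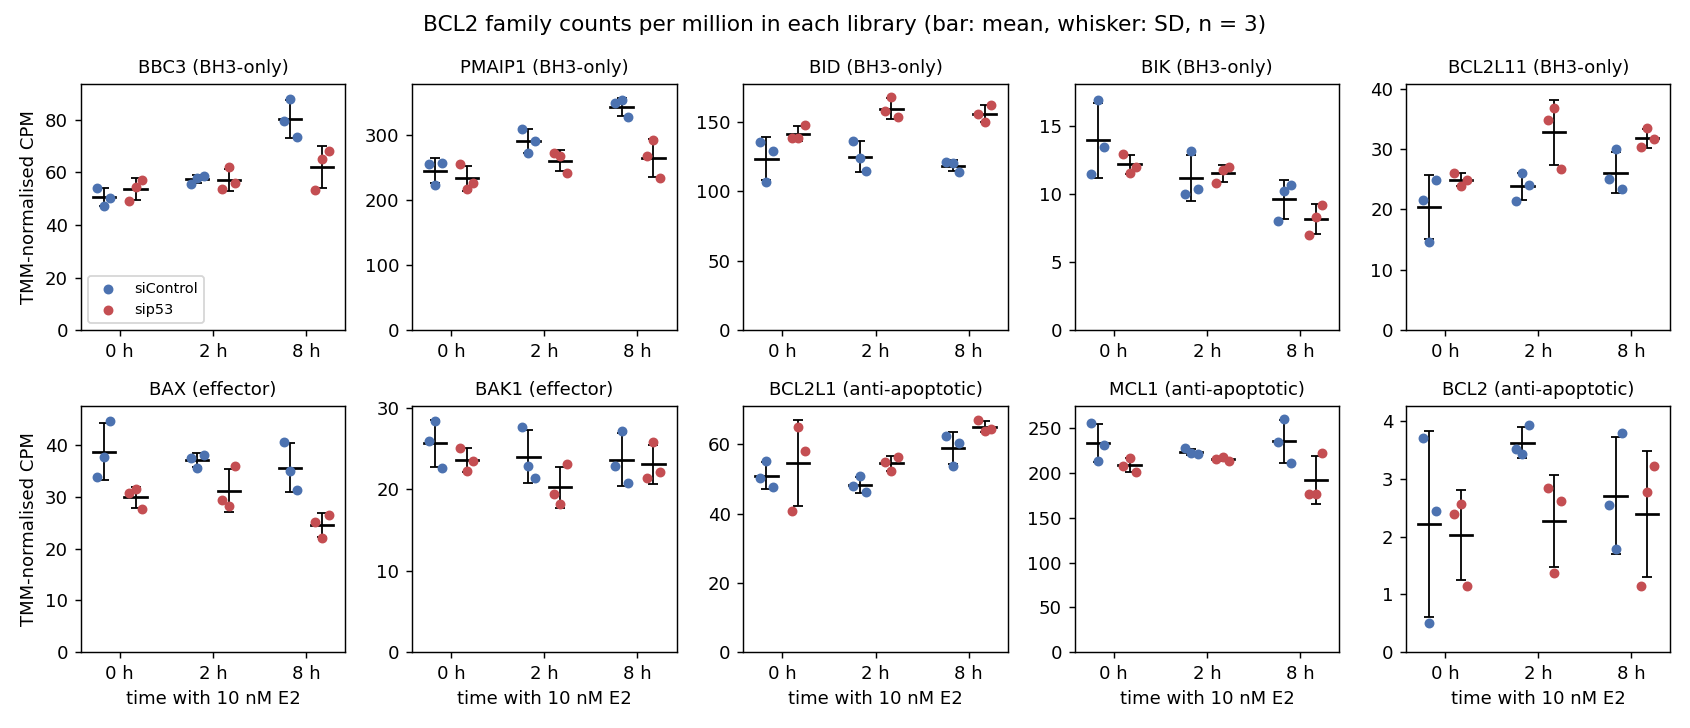
Level of each member in each library. The vertical axis is TMM-normalised CPM from 0, the horizontal axis the time with 10 nM E2, each point a library, each bar a group mean and each whisker the SD (n = 3). BBC3 and PMAIP1 are highest in siControl at 8 h, BID is higher in all sip53 groups than in siControl at the same time, and BCL2 stays below 4 CPM.

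BH3-only genes differed in both directions between sip53 and siControl. Averaged over the 3 times, BID and BCL2L11 were higher in sip53, and BAX, PMAIP1 and MCL1 were lower, with folds between 1.12 and 1.31 either way. These 5 of 10 members stand against 34.6% of all genes tested that passed the same threshold, 16.1% higher and 18.5% lower (adjusted p under 0.05, edgeR quasi-likelihood test with Benjamini-Hochberg adjustment). At 8 h 4 of 10 passed (BID higher, BBC3, PMAIP1 and BAX lower), against 8.96% of all genes (2.81% higher and 6.14% lower). With upper-quartile scaling 42.4% of the calls over all genes at 8 h were higher, where TMM gave 31.4%. At 2 h 1 of 10 passed (BID higher), against 12.2% (4.42% higher and 7.79% lower). At 0 h none of the 10 passed with edgeR or with DESeq2, against 9.12% of all genes by edgeR (3.98% higher and 5.14% lower). At that time 1 member (BAX) had an unadjusted p under 0.05 with edgeR, against 3886 of 15318 genes. The median log2 fold change of the 10 was -0.13 averaged over times, where that of all genes was 0.01.

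**Figure D2:**
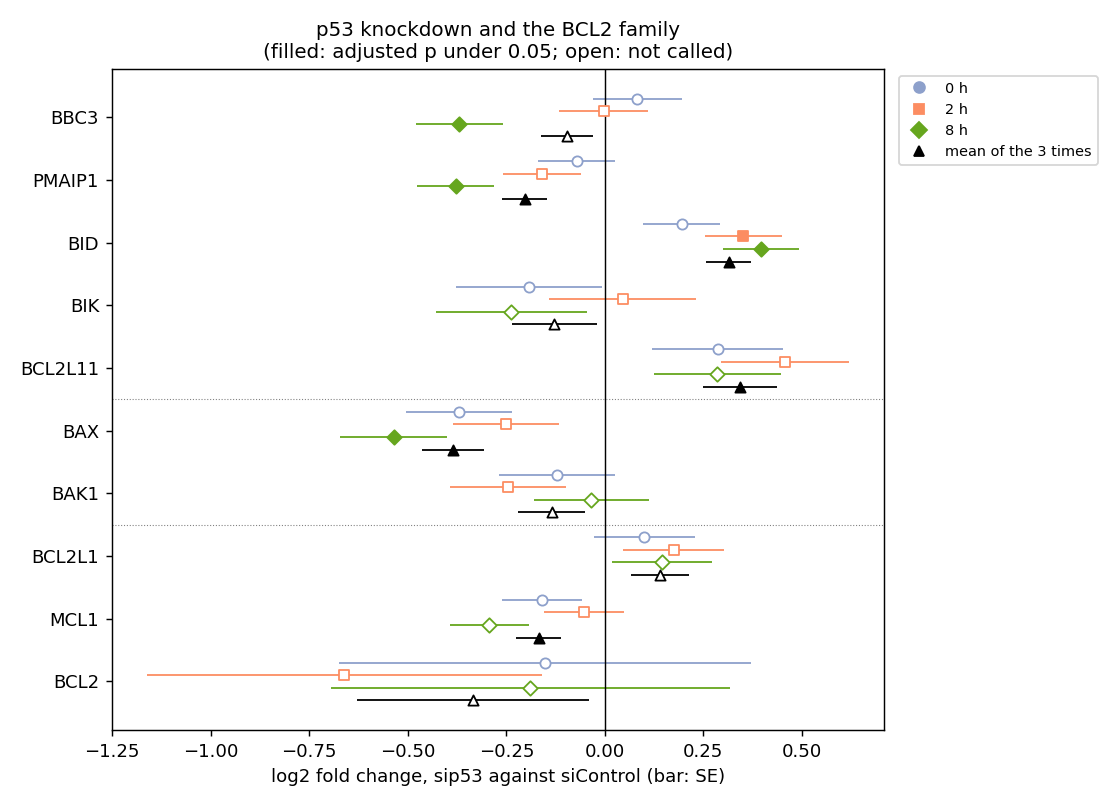
Effect of p53 knockdown on each member. The horizontal axis is the log2 fold change of sip53 against siControl with its SE, at 0, 2 and 8 h and averaged over the times. Filled symbols passed an adjusted p of 0.05. BAX lies left of 0 and BID right of 0 at every time, while BBC3 is filled at 8 h only.

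Among the BH3-only genes, BID was the one with the most regular difference. In siControl its libraries held 135, 106 and 129 CPM at 0 h, 137, 124 and 115 at 2 h, and 121, 120.2 and 114 at 8 h. In sip53 they held 139, 138 and 148 CPM at 0 h, 158, 168 and 153 at 2 h, and 156, 149.9 and 162 at 8 h. All 3 sip53 libraries were above all 3 siControl libraries at every time. The log2 difference was 0.20 ± 0.10 (SE) at 0 h, 0.35 ± 0.10 at 2 h and 0.40 ± 0.10 at 8 h (adjusted p = 0.214, 0.0202 and 0.0132), and 0.31 ± 0.06 averaged over times (adjusted p = 0.000164). The averaged call was kept in each of the 18 refits that left out 1 library. The 2 h call was lost without siControl replicate 2 or 3 or sip53 replicate 2 (adjusted p up to 0.0888), and the 8 h call without sip53 replicate 3 (0.0557).

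BCL2L11 also rose in sip53 when the times were averaged. Its siControl libraries held 21.6, 14.6 and 24.9 CPM at 0 h, 21.5, 26.0 and 24.1 at 2 h, and 25.1, 30.0 and 23.4 at 8 h. The sip53 libraries held 26.1, 23.9 and 24.9 CPM at 0 h, 34.9, 36.8 and 26.7 at 2 h, and 30.3, 33.4 and 31.7 at 8 h. The groups overlapped at 0 h and did not at 2 h or 8 h. The averaged log2 difference was 0.34 ± 0.09 (adjusted p = 0.00661), and it passed without each library in turn. No single time passed, with log2 differences of 0.29 ± 0.17, 0.46 ± 0.16 and 0.29 ± 0.16 (adjusted p = 0.288, 0.0663 and 0.286). At 2 h it passed with DESeq2 (0.0395), with upper-quartile scaling (0.0483), without the low-count filter (0.0456), with the 2 h groups fitted alone (0.0309) and without sip53 replicate 3 (0.0455).

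BBC3 and PMAIP1 were lower in sip53 at 8 h, the time at which both had risen with E2 in siControl. BBC3 libraries of siControl held 54.1, 47.1 and 50.5 CPM at 0 h, 55.6, 57.8 and 58.7 at 2 h, and 79.4, 88.1 and 73.5 at 8 h. Those of sip53 held 49.1, 54.6 and 57.1 CPM at 0 h, 53.8, 61.9 and 56.2 at 2 h, and 53.2, 65.2 and 68.3 at 8 h. The arms overlapped at 0 h and 2 h and separated at 8 h. The log2 difference was 0.08 ± 0.11 at 0 h, -0.00 ± 0.11 at 2 h and -0.37 ± 0.11 at 8 h (adjusted p = 0.694, 0.992 and 0.0392). Averaged over times it was -0.096 ± 0.065 (adjusted p = 0.266) and did not pass. The 8 h call was lost without siControl replicate 1 or 2 or sip53 replicate 1 or 3 (adjusted p up to 0.183). It was also lost without the low-count filter (0.0725), with upper-quartile scaling (0.0518) and with the 8 h groups fitted alone (0.0544).

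PMAIP1 libraries of siControl held 255, 223 and 257 CPM at 0 h, 309, 273 and 291 at 2 h, and 349, 353 and 328 at 8 h. Those of sip53 held 255, 218 and 227 CPM at 0 h, 272, 268 and 242 at 2 h, and 267, 292 and 233 at 8 h. At 2 h and 8 h every sip53 library was below every siControl library, narrowly so at 2 h. The log2 difference was -0.07 ± 0.10 at 0 h, -0.16 ± 0.10 at 2 h and -0.38 ± 0.10 at 8 h (adjusted p = 0.701, 0.319 and 0.0183). Averaged over times it was -0.20 ± 0.06 (adjusted p = 0.00767), a call that passed without each library in turn. The 8 h call was lost without siControl replicate 1 or 2 or sip53 replicate 1 or 3 (adjusted p up to 0.151). BIK, the remaining BH3-only gene, had an averaged log2 difference of -0.13 ± 0.11 (adjusted p = 0.388), and its arms overlapped at all 3 times.

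The effectors differed from each other in the number of calls. BAX libraries of siControl held 33.8, 37.6 and 44.6 CPM at 0 h, 37.5, 35.6 and 38.1 at 2 h, and 40.6, 34.9 and 31.2 at 8 h. Those of sip53 held 30.6, 31.5 and 27.6 CPM at 0 h, 29.4, 28.1 and 35.8 at 2 h, and 25.2, 21.9 and 26.4 at 8 h. The arms did not overlap at 0 h or 8 h, and at 2 h a single sip53 library reached the siControl range. The log2 difference was -0.37 ± 0.14 at 0 h, -0.25 ± 0.14 at 2 h and -0.54 ± 0.14 at 8 h (adjusted p = 0.0863, 0.243 and 0.0162). Averaged over times BAX fell by 0.39 ± 0.08 on the log2 scale (adjusted p = 0.000556), and no left-out library ended that call. The 8 h call was lost without siControl replicate 1 (0.116) or sip53 replicate 2 (0.0584), and a 0 h call was gained without siControl replicate 1 (log2 difference -0.45, adjusted p = 0.0384). BAK1, which forms pores as BAX does but sits on mitochondria already in healthy cells, averaged -0.13 ± 0.09 (adjusted p = 0.237), and its arms overlapped at every time. Whether BAX and BAK1 differ in their response was not tested.

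Among the anti-apoptotic members, MCL1 was the one that passed. Its siControl libraries held 255, 213 and 231 CPM at 0 h, 227, 223 and 221 at 2 h, and 234, 259.6 and 211 at 8 h. The sip53 libraries held 208, 217 and 201 CPM at 0 h, 215, 218 and 214 at 2 h, and 176, 177 and 223 at 8 h. The arms overlapped at 0 h and 8 h, and at 2 h they were separate by a narrow margin. The averaged log2 difference was -0.17 ± 0.06 (adjusted p = 0.0285), and it missed the threshold in 5 of the 18 refits without 1 library: siControl 2 h replicate 2, siControl 8 h replicate 2, sip53 2 h replicate 3, sip53 8 h replicate 1 and sip53 8 h replicate 2 (adjusted p up to 0.0725). It also missed it without the low-count filter (0.069). At 8 h alone the log2 difference was -0.29 ± 0.10 (adjusted p = 0.0705), and it passed with DESeq2 (0.0307), without siControl replicate 3 (0.0492) and without sip53 replicate 3 (0.04).

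BCL2L1 and BCL2 passed in no knockdown comparison. In siControl BCL2L1 averaged 51.0 ± 3.76 CPM (SD, n = 3) at 0 h, 48.2 ± 2.41 at 2 h and 58.8 ± 4.62 at 8 h. In sip53 it averaged 54.6 ± 12.4, 54.4 ± 2.10 and 65.0 ± 1.62. The arms did not overlap at 2 h and 8 h, with higher values in sip53. The averaged log2 difference of BCL2L1 was 0.14 ± 0.07 (adjusted p = 0.149), and it passed when sip53 0 h replicate 1 was left out (0.20, adjusted p = 0.0112). BCL2 had a log2 difference of -0.33 ± 0.30 averaged over times (adjusted p = 0.409), an error several times that of the abundant members.

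After 8 h with E2, transcripts of BBC3 and PMAIP1, the pair of BH3-only genes best known as p53 targets, had risen in siControl cells. In the libraries given above, all 3 at 8 h were above all 3 at 0 h for both genes, and BBC3 went from a mean of 50.5 ± 3.49 to 80.3 ± 7.38 CPM (SD, n = 3). PMAIP1 went from 245 ± 19.1 to 343 ± 13.8 CPM. The log2 change was 0.67 ± 0.11 (SE) for BBC3 and 0.49 ± 0.10 for PMAIP1 (edgeR quasi-likelihood test, Benjamini-Hochberg adjusted p = 0.00124 and 0.00681). These 2 of 10 members rose and 0 fell with edgeR and with DESeq2, where 1.78% of all genes rose, 0.823% fell and 2.6% passed in either direction. Both calls were kept in all 6 refits without 1 of the libraries compared, and without the outlying siControl 0 h replicate 2 the log2 changes were 0.62 and 0.43 (adjusted p = 0.00866 and 0.049).

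At 2 h neither gene had passed, with log2 changes in siControl of 0.18 ± 0.11 for BBC3 and 0.25 ± 0.10 for PMAIP1 (adjusted p = 0.568 and 0.35). None of the 10 members passed at 2 h in siControl or in sip53 with edgeR or DESeq2. In each arm 1 member had an unadjusted p under 0.05 with edgeR, against 1748 of 15318 genes in siControl and 1139 in sip53. Of all genes 0.228% passed at 2 h in siControl, all of them higher, and 0.307% in sip53 (0.268% higher and 0.0392% lower). Between 2 h and 8 h BBC3 rose by a further 0.49 ± 0.11 on the log2 scale in siControl (adjusted p = 0.0319), the 1 member of 10 to pass, against 1.02% of all genes (0.646% higher and 0.379% lower). This call was lost without siControl 2 h replicate 1, 2 or 3 and without siControl 8 h replicate 1 or 2 (adjusted p up to 0.181).

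In sip53 cells none of the 10 members passed after 8 h of E2 with edgeR or DESeq2. With edgeR 2.74% of all genes did (1.55% higher and 1.18% lower). An unadjusted p under 0.05 with edgeR was found for 3 members, against 2184 of 15318 genes. The means of BBC3 were 53.6 ± 4.10 CPM at 0 h and 62.2 ± 8.00 at 8 h, and those of PMAIP1 233 ± 19.5 and 264 ± 29.5 (SD, n = 3). The groups at 0 h and 8 h overlapped for both genes. The log2 change was 0.21 ± 0.11 for BBC3 and 0.18 ± 0.10 for PMAIP1 (adjusted p = 0.393 and 0.422). From 2 h to 8 h in sip53 none of the 10 passed with either tool, against 1.38% of all genes with edgeR (0.823% higher and 0.555% lower). For this step 2 members had an unadjusted p under 0.05 with edgeR, against 1892 of 15318 genes.

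Whether the E2 response itself differed between the arms was tested directly. At 8 h it was -0.45 ± 0.16 on the log2 scale for BBC3 (edgeR unadjusted p = 0.00885, adjusted p = 0.999) and -0.31 ± 0.14 for PMAIP1 (unadjusted p = 0.0377, adjusted p = 0.999). Neither passed, so the response of these genes is not shown to differ between siControl and sip53. These were the 2 of 10 members with an unadjusted p under 0.05 at 8 h, against 583 of all 15318 genes tested. None of the members passed with DESeq2, and 0% of all genes passed with edgeR. At 2 h no member passed with edgeR or DESeq2, against 0% of all genes past the adjusted threshold with edgeR. None of the members had an unadjusted p under 0.05 with edgeR at 2 h, against 451 of 15318 genes.

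**Figure D3:**
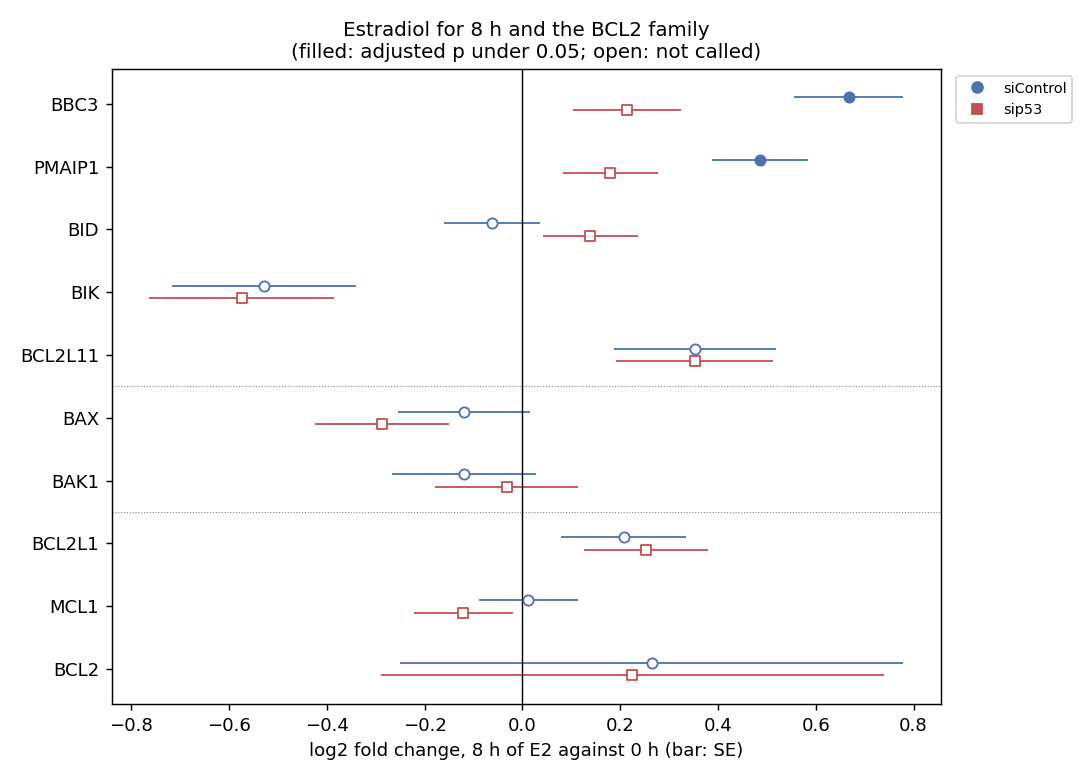
Change of each member after 8 h of E2. The horizontal axis is the log2 fold change of 8 h against 0 h with its SE, for siControl and sip53. Filled symbols passed an adjusted p of 0.05. BBC3 and PMAIP1 in siControl are filled, and BIK lies left of 0 in both arms without passing.

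The remaining BH3-only genes did not pass with E2. BIK libraries held 11.5, 16.9 and 13.4 CPM at 0 h and 8.00, 10.3 and 10.7 at 8 h in siControl, and 12.98, 11.56 and 12.02 at 0 h and 7.02, 8.34 and 9.21 at 8 h in sip53. In each arm every library at 8 h was below every library at 0 h. The log2 change of BIK was -0.53 ± 0.19 in siControl and -0.57 ± 0.19 in sip53 (adjusted p = 0.139 and 0.118), the values nearest to the threshold among members that missed it at 8 h. BCL2L11 had a log2 change of 0.35 in both arms (SE 0.17 and 0.16, adjusted p = 0.28 and 0.315). BID had -0.06 ± 0.10 in siControl and 0.14 ± 0.10 in sip53 (adjusted p = 0.803 and 0.554).

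Neither effectors nor anti-apoptotic genes passed after 8 h of E2 in either arm. BAX changed by -0.12 ± 0.14 in siControl and -0.29 ± 0.14 in sip53 on the log2 scale (adjusted p = 0.705 and 0.342), and in sip53 its libraries at 8 h were all below those at 0 h. BAK1 changed by -0.12 ± 0.15 and -0.03 ± 0.15, and MCL1 by 0.01 ± 0.10 and -0.12 ± 0.10. BCL2L1 changed by 0.21 ± 0.13 and 0.25 ± 0.13 (adjusted p = 0.439 and 0.373). For BCL2, the estrogen-responsive gene of breast epithelium, the log2 change was 0.26 ± 0.52 in siControl and 0.23 ± 0.52 in sip53 (adjusted p = 0.849 and 0.899). With 4 to 37 counts per library, an E2 change of BCL2 of the size seen for BBC3 was not detectable at this depth.

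Ratios within a library set a promoter of apoptosis against a guardian and are given as descriptions, without a test, since they are built from the members described above. The PMAIP1 to MCL1 ratio was 1.05 ± 0.0575, 1.301 ± 0.0683 and 1.47 ± 0.0965 (SD, n = 3) at 0, 2 and 8 h in siControl. In sip53 it was 1.12 ± 0.112, 1.21 ± 0.0678 and 1.41 ± 0.317, and 1 library at 8 h (1.05) lay at the level of 0 h. The mean ratio was thus higher at 8 h than at 0 h in both arms, and the arms overlapped at every time. The BBC3 to MCL1 ratio was 0.217 ± 0.00478 at 0 h and 0.342 ± 0.00471 at 8 h in siControl, and 0.257 ± 0.0247 and 0.326 ± 0.0371 in sip53. The arms overlapped in the BBC3 to MCL1 ratio at 8 h, and at 0 h every sip53 library was above every siControl library. With time the BAX to BCL2L1 ratio moved the other way. It was 0.765 ± 0.148 at 0 h and 0.606 ± 0.0773 at 8 h in siControl, and 0.570 ± 0.157 and 0.377 ± 0.0326 in sip53. At 8 h the 3 sip53 libraries (0.376, 0.344 and 0.410) were all below the 3 siControl libraries (0.651, 0.651 and 0.517).

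**Figure D4:**
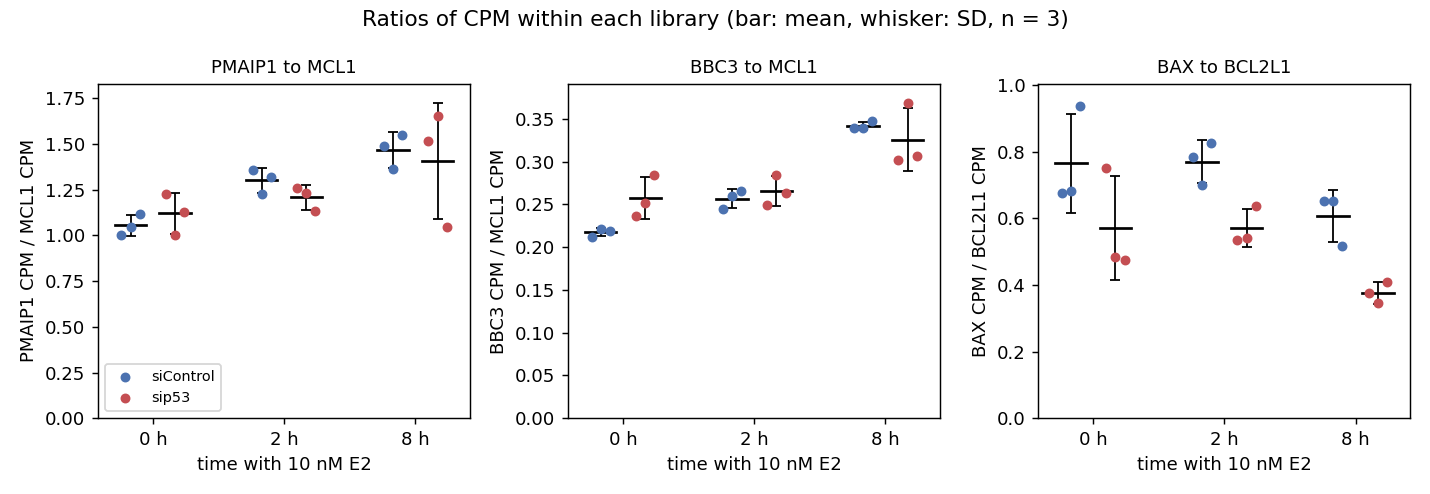
Ratios of CPM between members within each library. The vertical axes are the ratios PMAIP1 to MCL1, BBC3 to MCL1 and BAX to BCL2L1 from 0, the horizontal axis the time with 10 nM E2, each point a library, each bar a mean and each whisker the SD (n = 3). BBC3 to MCL1 is higher at 8 h than at 0 h in every library of either arm, and BAX to BCL2L1 is lowest in sip53 at 8 h.

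Summed by role, BH3-only transcripts went from 454 ± 39.4 CPM at 0 h to 578 ± 26.7 at 8 h in siControl and from 466 ± 18.3 to 522 ± 23.5 in sip53 (SD, n = 3). PMAIP1 carries much of these sums. In siControl effector transcripts were 64.3 ± 3.98 CPM at 0 h, 61.01 ± 3.54 at 2 h and 59.2 ± 6.22 at 8 h. In sip53 they were 53.4 ± 2.35, 51.3 ± 6.63 and 47.6 ± 0.996. Anti-apoptotic transcripts lay between 259 and 297 CPM in the 6 group means. The mean BH3-only to anti-apoptotic ratio was 1.585, 1.846 and 1.95 at 0, 2 and 8 h in siControl. In sip53 it was 1.762, 1.915 and 2.032, and the arms overlapped at every time. These sums and their ratio were not tested.

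Other genes of the BCL2 family and genes named after it were measured as a list of 16, of which 13 were tested. The list includes BNIP genes, named as BCL2 interacting proteins, and the read-through gene BCL2L2-PABPN1. Its counts are therefore not of the family alone. Averaged over times 6 rose and 1 fell in sip53 with edgeR, where 16.1% of all genes rose and 18.5% fell, and their median log2 difference was 0.16. BOK, an effector relative, rose by 0.34 ± 0.07 on the log2 scale (adjusted p = 0.001), BAD, a BH3-only protein held inactive by survival kinases, by 0.37 ± 0.10 (0.00657), BNIP2 by 0.23 ± 0.06 (0.00787) and BNIP3L, a mitophagy receptor, by 0.18 ± 0.06 (0.0278). BCL2L13 fell by 0.18 ± 0.07 (0.0454). At single times 1 of 13 passed at 0 h (BOK, higher) and 1 at 8 h (BAD, higher), against 9.12% and 8.96% of all genes with edgeR. At 2 h 0 of 13 passed with edgeR and with DESeq2, against 12.2% of all genes with edgeR. At that time 2 had an unadjusted p under 0.05 in edgeR, against 4101 of 15318 genes.

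With E2 for 8 h, edgeR called 1 of these 13 higher in siControl and 2 higher in sip53, and DESeq2 called 1 higher in siControl and 2 higher and 1 lower in sip53. Of all genes edgeR called 1.78% higher in siControl and 1.55% higher in sip53. The edgeR calls of the list are named here after their values were seen. HRK (harakiri), a BH3-only gene, rose in both arms. Its libraries held 28.4, 41.8 and 43.6 CPM at 0 h and 58.7, 64.4 and 73.4 at 8 h in siControl, and 32.04, 33.8 and 41.1 at 0 h and 59.2, 60.97 and 62.8 at 8 h in sip53, listed from low to high. The times did not overlap in either arm. The log2 change of HRK was 0.79 ± 0.15 in siControl and 0.78 ± 0.15 in sip53 (adjusted p = 0.00483 and 0.00462), and the arms differed by -0.02 ± 0.22 (adjusted p = 0.999). BCL2L2 (BCL-w), an anti-apoptotic gene, rose by 0.89 ± 0.22 in sip53 (adjusted p = 0.0289), and the arms differed by 0.32 ± 0.31 (adjusted p = 0.999). BCL2L2 shares sequence with the read-through gene BCL2L2-PABPN1, so the split of its counts is uncertain.

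Downstream of the pores, 18 of 18 listed genes of caspases, the apoptosome and mitochondrial release were tested. Averaged over times 6 rose and 3 fell in sip53 with edgeR, against 16.1% and 18.5% of all genes, with a median log2 difference of 0.16. HTRA2, a protease released from mitochondria, rose by 0.52 ± 0.07 on the log2 scale (adjusted p = 5.52e-06), the outer membrane channels VDAC3 and VDAC2 by 0.32 ± 0.06 and 0.15 ± 0.05 (0.000131 and 0.0223) and CASP2 by 0.19 ± 0.06 (0.0231). APAF1, the scaffold of the apoptosome and a known p53 target, fell by 0.64 ± 0.13 (0.000458), CASP8, the initiator caspase that cleaves BID, by 0.38 ± 0.09 (0.00196) and DFFA, the inhibitor of the apoptotic nuclease, by 0.24 ± 0.07 (0.00839). At single times, edgeR called 2 higher at 0 h (HTRA2 and VDAC3), 1 higher and 2 lower at 2 h (HTRA2, and APAF1 and CASP8), and 2 higher at 8 h (HTRA2 and VDAC3). With DESeq2 the higher calls numbered 3, 2 and 2 at 0, 2 and 8 h, and the lower calls 0, 2 and 1. Of all genes edgeR called 9.12%, 12.2% and 8.96% at these times. With E2 for 8 h 0 of 18 passed in either arm with edgeR or DESeq2. The shares of all genes with edgeR were 2.6% in siControl and 2.74% in sip53. An unadjusted p under 0.05 with edgeR was found for 3 in siControl and 2 in sip53, against 2583 and 2184 of 15318 genes.

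Of 7 listed inhibitor of apoptosis proteins 6 were tested, with a median averaged log2 difference of -0.09. Averaged over times 1 rose and 1 fell with edgeR, against 16.1% and 18.5% of all genes. BIRC6, a giant ubiquitin ligase that restrains caspases, fell by 0.54 ± 0.09 averaged over times (adjusted p = 6.23e-05). It was the 1 gene of the list called at 0, 2 and 8 h, each time lower, against 5.14%, 7.79% and 6.14% of all genes. BIRC3 rose by 0.23 ± 0.09 averaged over times (adjusted p = 0.0471). With E2 for 8 h 0 of 6 passed in either arm with edgeR or DESeq2. The shares of all genes with edgeR were 2.6% in siControl and 2.74% in sip53. An unadjusted p under 0.05 with edgeR was found for 0 of 6 in either arm, against 2583 and 2184 of 15318 genes.

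In the death receptor pathway 10 of 12 listed genes were tested, and 2 rose and 2 fell averaged over times with edgeR (median log2 difference 0.10). These 4 of 10 stand against 34.6% of all genes. The adaptors FADD and TRADD rose by 0.31 ± 0.08 and 0.46 ± 0.14 on the log2 scale (adjusted p = 0.00431 and 0.0133). The TRAIL receptors TNFRSF10A and TNFRSF10D, the latter a decoy, fell by 0.36 ± 0.06 and 0.76 ± 0.19 (8.6e-05 and 0.00331). TNFRSF10A was the 1 gene called by edgeR at 0 h and at 2 h, lower both times, while DESeq2 called 1 gene at 0 h (lower) and 3 at 2 h (1 higher, 2 lower). Of all genes edgeR called 9.12% at 0 h and 12.2% at 2 h. At 8 h 0 of 10 passed with edgeR, against 8.96% of all genes, and 1 with DESeq2. At that time 4 of 10 had an unadjusted p under 0.05 with edgeR, against 3747 of 15318 genes. With E2 for 8 h TNFRSF1A, the main TNF receptor, rose by 0.43 ± 0.11 in siControl and 0.45 ± 0.11 in sip53 (adjusted p = 0.029 and 0.0199), the 1 gene of 10 called by edgeR in each arm. Of all genes edgeR called 2.6% in siControl and 2.74% in sip53. DESeq2 called 1 of the 10 higher and 1 lower in each arm.

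The 18 listed p53-linked apoptosis genes outside the family were all tested, and 2 rose and 5 fell in sip53 averaged over times with edgeR, with a median log2 difference of -0.09. These 7 of 18 stand against 34.6% of all genes. Besides RPS27L and CDKN1A, the stress sensor SESN2 fell by 0.50 ± 0.07 (adjusted p = 8.14e-06) and the RNA-binding protein gene ZMAT3 by 0.67 ± 0.09 (9.4e-06). APAF1, which is in this list too, was the fifth. DRAM1, a lysosomal regulator of autophagy, rose by 0.47 ± 0.06 (1.72e-06) and SIVA1 by 0.22 ± 0.06 (0.00294). At 0, 2 and 8 h edgeR called 3.98%, 4.42% and 2.81% of all genes higher and 5.14%, 7.79% and 6.14% lower. Of the 18 it called 1 higher (DRAM1 each time) and 3, 4 and 4 lower at these times. DESeq2 called 1, 2 and 1 of the 18 higher and 3, 4 and 5 lower. CDKN1A and RPS27L were among those lower at each time, joined by SESN2 at 0 h, by ZMAT3 and APAF1 at 2 h, and by SESN2 and ZMAT3 at 8 h. With E2 for 8 h SESN2 rose by 1.35 ± 0.12 in siControl and 1.06 ± 0.12 in sip53 (adjusted p = 1.38e-07 and 4.33e-06). PERP, a membrane protein gene, rose in siControl by 0.45 ± 0.12 (0.0447), and ZMAT3 fell in sip53 by 0.62 ± 0.16 (0.0371). This made 2 of 18 called in each arm with edgeR, against 2.6% of all genes in siControl and 2.74% in sip53. For the difference between arms at 8 h 0 of 18 passed, against 0% of all genes. In that comparison 0 of 18 had an unadjusted p under 0.05 with edgeR, against 583 of 15318 genes.

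Of 16 listed regulators of MCL1 and of BH3-only proteins, all were tested, and 2 rose and 5 fell in sip53 averaged over times with edgeR (median log2 difference 0.10). DESeq2 called 2 higher and 6 lower, and 34.6% of all genes were called by edgeR. FOXO3 and FOXO1, which can activate BCL2L11 and BBC3, rose by 0.18 ± 0.05 and 0.23 ± 0.08 on the log2 scale (adjusted p = 0.00608 and 0.0295). DDIT3 (CHOP), a stress-induced transcription factor, fell by 0.39 ± 0.07 (0.000239) and JUN by 0.31 ± 0.06 (0.000394). FBXW7 and HUWE1, ubiquitin ligase components that target the MCL1 protein, fell by 0.30 ± 0.06 and 0.24 ± 0.06 (0.000683 and 0.00496). The fifth to fall was TRIB3, by 0.28 ± 0.09 (0.0166). At single times 1 rose and 1 fell at 0 h (FOXO1 and FBXW7), 1 rose at 2 h (FOXO3), and 2 fell at 8 h (DDIT3 and JUN). Of all genes edgeR called 9.12%, 12.2% and 8.96% at these times.

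With E2 for 8 h DDIT3 rose in both arms, by 1.16 ± 0.13 in siControl and 0.92 ± 0.13 in sip53 on the log2 scale (adjusted p = 3.39e-06 and 7.95e-05), and the arms differed by -0.24 ± 0.18 (adjusted p = 0.999). In siControl TRIB3, a partner and target of DDIT3, also rose (0.57 ± 0.15, adjusted p = 0.0463). This made 2 of 16 higher with edgeR, against 1.78% of all genes, where DESeq2 called 2 of 16 higher and 1 lower. In sip53 1 of 16 (DDIT3) rose and 3 fell with edgeR (2 and 3 with DESeq2), against 1.55% and 1.18% of all genes with edgeR. The 3 that fell were HSPA5, the endoplasmic reticulum chaperone, by 0.39 ± 0.08 (adjusted p = 0.00444), JUN by 0.47 ± 0.11 (0.0133) and FOXO1 by 0.52 ± 0.14 (0.0402).

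For the 5 members called in the averaged knockdown comparison, the genes whose log2 CPM followed them most closely over the 18 libraries were looked up among 9647 genes of at least moderate abundance, as a description. The libraries share the knockdown and time structure, so many genes run in parallel. For BID the closest were LITAF (Pearson r = 0.945), EID1 (0.945) and TXNL4A (0.939). For BCL2L11 they were SC5D (0.894), PODXL (0.893) and XAGE2 (0.887). PMAIP1 ran closest to SEPHS2 (0.916), TSPAN5 (0.883) and ESRP1 (0.878). The values were lower for MCL1, with MOSPD1 (0.864), RB1 (0.805) and ETV5 (0.799), and for BAX, with ZZZ3 (0.853), INO80B (0.852) and DDX42 (0.851). No other member was among the 3 closest genes of any of these 5.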

How the data were processed

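RNA of 18 PEO1 samples was made into QuantSeq 3' libraries (FWD), per the labels' protocols. The authors deposited expected counts per gene. The tools in the submitters' processing notes are cutadapt, Bowtie2, RSEM 1.3.3 and MultiQC, with build hg19. An annotation was not given in the sources used. The deposited values were already whole (100% of values). Rows were named through GENCODE v29 (GRCh38), so coordinates printed are on GRCh38. Rows without a name held 0.576% (no transcript found) and 0.0596% (no majority gene) of counts and stayed in the fit as unnamed rows.

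Genes were filtered with filterByExpr (minimum count 10), scaled by TMM and fitted with edgeR 4.0.16 in R 4.3.3 (quasi-likelihood, all 18 samples, 1 coefficient per group), with Benjamini-Hochberg adjustment over all 15318 genes within a contrast and a threshold of 0.05. Each SE is the log2 change divided by the square root of its F statistic. The biological coefficient of variation was 15.2%. Pairs within groups differed beyond counting noise (chi-square per degree of freedom 4.15 to 24.91). DESeq2 1.42.0, other scaling, no filter, fewer groups, a replicate block and leaving out each library were alternatives. The code was tested on simulated data. All members were described in full, up to 4 called genes per direction of each other list by smallest adjusted p in the averaged contrast, and the 3 most correlated genes (average log2 CPM of at least 3). The members and lists were chosen with earlier results of these data known. The level of the targeted gene is not reported here.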

Additional observations from a re-analysis of the deposited data

How the results depend on the processing

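The number of members called depended on the processing as follows. For knockdown at 2 h it was 1 as reported, and 0 to 2 when 1 library was left out. It was 2 with DESeq2, without the low-count filter, with the compared groups alone and with upper-quartile scaling. For knockdown at 8 h it was 4 as reported and 5 with DESeq2. It was 3 at 8 h without the filter, with the compared groups alone and with upper-quartile scaling. For knockdown averaged over times it was 5 as reported and 4 without the filter. Leaving out 1 library gave 0 to 1 at 0 h, 1 to 5 at 8 h, 4 to 6 averaged over times and 0 to 1 for 8 h against 2 h of E2 in siControl, and 2 each time for 8 h against 0 h of E2 in siControl. Of 1670 alternative values of the 120 member results, 28 lost a call, 10 gained one, and 0 called values changed direction, while 77 uncalled values changed sign. The averaged contrast uses all groups, so it has no version with fewer. Over all genes, DESeq2 called 130 and 94 at 2 h of E2 (siControl and sip53) where edgeR called 35 and 47, 681 and 633 at 8 h where edgeR called 399 and 419, and 350 and 406 for 8 h against 2 h where edgeR called 157 and 211. Without the low-count filter edgeR called 285 and 204 at 2 h, 789 and 701 at 8 h, and 313 and 403 for 8 h against 2 h. With the compared groups alone it called 284 for knockdown at 0 h, 13 for E2 at 2 h in siControl, 131 and 270 at 8 h in siControl and sip53, and 375 for 8 h against 2 h in sip53. For the difference between arms, DESeq2 called 1 and 2 genes at 2 and 8 h and edgeR without the filter 36 and 54, against 0. Leaving out 1 library gave 289 to 2043 calls for knockdown at 0 h (1397 as reported), 821 to 1923 at 2 h (1871), 399 to 1466 at 8 h (1372), and 180 to 739 and 213 to 343 for E2 at 8 h in siControl and sip53.

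Samples with the same replicate number did not deviate together: the mean correlation was 0.006 over 45 same-number pairs (-0.364 to 0.437) and -0.003 over 90 other pairs, and 6 of 18 samples correlated best with their own number. With a replicate block, the number of members called was 0, 1 and 4 for knockdown at 0, 2 and 8 h, and 5 averaged over times. Calls over all genes with the block were 1448, 1868, 1419 and 5286. Depth limits BCL2, with 4 to 37 counts per library.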
